A study of Triticum aestivum with 16 samples.

Results

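Of the 31438 wheat probe sets whose identifiers have the form Ta.N.M, 2 met a rule for opposite line patterns, and they formed a single pair. The pair was Ta.14571.1.S1_at and Ta.14571.2.A1_at, of the cluster Ta.14571. In these identifiers N numbers a cluster of related transcript sequences, M numbers a sequence group within it, and probe sets with the same N and different M are called partners here. The pair was chosen by measured values: both partners had line means at least 1 log2 unit apart, and their line means had a Pearson correlation at or below -0.8 over the 8 lines. The levels below therefore describe the pair and do not test it.

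The arrays measured stem tops of 8 recombinant inbred wheat lines (SB169, SB62, SB57, SB165, SB109, SB10, SB3 and SB69) of the cross of Seri M82 with Babax. Each line had 2 arrays, 1 for each of 2 field plots, and each array held RNA pooled from several main tillers of its plot. All lines were grown rain-fed and taken at flowering (anthesis), on soil still wet from rain, and no untreated or parental group was analysed here. Array medians lay between 23.56 and 25.02 intensity units. The gene table paired 1273 probe sets with genes, 13 symbols apart from LOC numbers, and held 0 of the 3 probe sets of cluster Ta.14571. The gene behind the pair is thus unnamed here, and the stem tissue was not checked against marker genes.

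Bread wheat carries several related genomes side by side, so most of its genes exist as homoeologous copies with closely similar sequences. A sequence cluster on an array can mix such copies, alleles of 1 copy and splice forms, and partner probe sets can then read different members of it. In a recombinant inbred line nearly every locus is fixed for the allele of 1 parent, and a locus with a strong effect on a transcript gives a high and a low level over the lines. The probes are short, so a base difference under a probe can lower its signal at the same amount of transcript. In these values transcript abundance and sequence under the probes cannot be told apart. Nor, in whole stem tops, can fewer cells of a type and less RNA per cell.

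Ta.14571.1.S1_at was bright in SB169, SB62 and SB57 and dim in the other 5 lines. Its log2 intensity was 7.47 and 7.00 in SB169, 7.19 and 6.98 in SB62, and 6.60 and 6.99 in SB57, replicate 1 first. In the other lines it was 3.86 and 5.39 in SB165, 4.04 and 4.26 in SB10, 4.56 and 4.35 in SB109, 4.14 and 4.03 in SB69, and 4.05 and 4.13 in SB3. All 6 arrays of SB169, SB62 and SB57 lay above all 10 arrays of the other lines, and SB165 replicate 2 stood apart from its group at 5.39.

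The order of the line means of Ta.14571.1.S1_at ran from SB169, at 7.24 ± 0.33 (SD, n = 2), through SB62 (7.09 ± 0.15) and SB57 (6.79 ± 0.28) to SB165, at 4.62 ± 1.08 (SD, n = 2 each). SB109 (4.45 ± 0.15), SB10 (4.15 ± 0.16), SB3 (4.09 ± 0.06) and SB69 (4.09 ± 0.08) followed. The step from SB57 to SB165 was 2.17 log2 units, which is 68.9% of the whole range of 3.15 (8.88-fold). It exceeded the pooled replicate SD of 0.42, whereas every other step between neighbours in the order was smaller than that SD. Without SB165 replicate 2, the highest array of the 5 dim lines stood at 4.56 and the range was 3.38.

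Ta.14571.2.A1_at had the reverse arrangement, dim in SB169, SB62 and SB57 and brighter in the other 5 lines. It stood at 3.59 and 3.95 in SB169, 3.62 and 4.45 in SB62, and 3.45 and 3.81 in SB57. In SB165 it stood at 5.54 and 6.09, in SB10 at 6.04 and 6.49, in SB109 at 6.16 and 5.66, in SB69 at 5.64 and 5.97, and in SB3 at 5.88 and 6.45. Again no array crossed over: the highest of the 6 dim arrays was 4.45 and the lowest of the 10 others 5.54.

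SB10 was highest at Ta.14571.2.A1_at, at 6.26 ± 0.32 (SD, n = 2), followed by SB3 (6.16 ± 0.40), SB109 (5.91 ± 0.36), SB165 (5.82 ± 0.39) and SB69 (5.81 ± 0.24). SB62 (4.03 ± 0.58), SB169 (3.77 ± 0.25) and SB57 (3.63 ± 0.26) were lowest (SD, n = 2 each). The step between SB69 and SB62 was 1.77 log2 units, or 67.2% of the range of 2.64 (6.22-fold), against a pooled replicate SD of 0.37. Neighbours on the same side of it lay closer together than that SD. SB165 replicate 2, intermediate at the first probe set, was not low at the second, where it exceeded replicate 1.

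The moderated F-test of limma over the 8 lines gave adjusted p-values of 6.95e-06 for Ta.14571.1.S1_at and 2.32e-05 for Ta.14571.2.A1_at (Benjamini-Hochberg over 61115 wheat probe sets). It called 2 of 2 members, where 3.99% of all wheat probe sets were called. Since the rule asked for separated line means, nothing is read from this count.

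The correlation of the line means was -0.979 over the 8 lines, and Spearman's rho was only -0.667. With the lines in 2 clusters, no test of the correlation was made. Within the clusters the partners did not mirror each other closely: r was 0.52 over the 3 lines SB169, SB62 and SB57 and -0.51 over the other 5, both over too few lines for a test. The opposition was seen between the clusters of lines, and whether it also held within them could not be decided from so few lines.

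Dim levels were not at the bottom of the array. At Ta.14571.1.S1_at the arrays of the 5 dim lines fell at percentiles 37.3 to 62.0 among all wheat values, and those of the 3 bright lines at 78.1 to 86.5. At Ta.14571.2.A1_at the dim arrays fell at percentiles 29.0 to 47.5 and the brighter ones at 64.3 to 76.8. No detection calls were used here, so how much of the dim signal is background is unknown.

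Cluster Ta.14571 has 1 further probe set on the array, Ta.14571.3.S1_x_at, and it took neither side. Its log2 intensity ranged from 7.34 to 7.93 over the 6 arrays of SB169, SB62 and SB57 and from 7.12 to 7.98 over the 10 other arrays. The arrays of these lines overlapped throughout. The line means spanned 0.51 log2 units, from 7.28 ± 0.22 in SB69 to 7.79 ± 0.28 in SB3 (SD, n = 2 each), against a pooled replicate SD of 0.22. They correlated at 0.10 with the first partner and -0.07 with the second (descriptions, n = 8 lines). The F-test gave an adjusted p of 0.64 in limma (unadjusted 0.285), which does not show equal levels. In Affymetrix identifiers the ending _x_at marks probe sets with probes that can also bind other sequences.

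The summed linear signal of the pair varied less than either partner but did not stay constant. In intensity units the sum was 189.3 and 143.5 in SB169, 158.7 and 148.3 in SB62, and 107.8 and 141.0 in SB57. It was 61.1 and 110.0 in SB165, 82.2 and 109.2 in SB10, 95.3 and 71.0 in SB109, 67.4 and 79.2 in SB69, and 75.5 and 104.8 in SB3. The lines that were bright at Ta.14571.1.S1_at had the 3 highest sums, although 2 of the 10 other arrays, SB165 replicate 2 and SB10 replicate 2, exceeded SB57 replicate 1.

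By line, the sum ran from 73.3 ± 8.35 (SD, n = 2) in SB69 to 166.4 ± 32.4 (SD, n = 2) in SB169. On the log2 scale the range of the sum was 1.17 (2.26-fold), which is 3.63 times its pooled replicate SD of 0.32. Over line means the coefficient of variation was 32.0% for the sum, 95.0% for Ta.14571.1.S1_at and 59.2% for Ta.14571.2.A1_at. Without SB165 replicate 2 the range of the sum was 1.43.

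A plain sum weights both partners alike, although each probe set has its own response to its target, so intensities of different probe sets are not amounts on 1 scale. Over the 8 lines the intensity of Ta.14571.1.S1_at dropped by 2.08 units for each unit gained by Ta.14571.2.A1_at. With the second partner multiplied by this fitted weight of 2.08, the sum ran from 133.9 in SB69 to 181.2 in SB169, a 1.35-fold range with a coefficient of variation of 11.9%. This weight is the least-squares slope over the same 8 lines, on linear line means, and makes the variance of the weighted sum as small as a weight can. The pair was chosen by the correlation of log2 line means of the same arrays. The evenness of the weighted sum thus follows in part from the fit and the choice, and is no independent support. Whether the lines held equal amounts of transcript was not tested.

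Opposite patterns were rare among partners. The identifiers gave 16385 partner pairs in 5074 clusters, and in 876 pairs of 219 clusters both line ranges reached 1 log2 unit. Of these 876, 743 (84.8%) had r at or above 0.8, 8 (0.913%) had r under 0, and 1 (0.114%) had r at or below -0.8. The median r was 0.94. These pairs share probe sets with each other, so they are no independent sample, and 3 clusters supplied 413 of them. Counted by cluster, 8 of 219 (3.65%) held a pair with r under 0, 1 (0.457%) held a pair with r at or below -0.8, and 193 (88.1%) had a median r at or above 0.8. Probe sets of the same cluster and the same M, which the rule left out, gave 279 pairs with a median r of 0.98 and 0 with r under 0.

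Probe sets of different clusters had a wider spread of correlations. In all 2640396 pairs of Ta probe sets from different clusters with both ranges at least 1, r was at or below -0.8 in 2.17%, at or above 0.8 in 18.7%, and 0.32 at the median. The share at or below -0.8 was thus smaller among partner pairs, by pair or by cluster, than among pairs across clusters, a description without a test. Among the 176 partner pairs with both ranges at least 2, the pair of Ta.14571 was the 1 with r under 0, and the next lowest r was 0.27.

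Divided by the smaller of the pair's line ranges, the range of its summed signal was 0.45, and 0 of the 876 pairs had a lower ratio (median 1.11). Divided by the larger range it was 0.37, and 3 pairs had a lower ratio (median 0.86). These ratios follow in part from the opposite patterns by which the pair was chosen. The letters S and A before the last digit of the identifiers differed within the pair. Such mixed pairs made up 108 of the 876, with a median r of 0.95, and 3 of them had r under 0, against 4 of 732 pairs with S in both and 1 of 36 with A in both. The sources at hand do not define the letters.

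Each field replicate alone chose the same pair and no other. With the 8 arrays of replicate 1, 646 partner pairs had both ranges at least 1, and the pair of Ta.14571 (r = -0.945) was the 1 with r at or below -0.8. In replicate 2 its r was -0.924, and its ranges were 2.97 and 2.68 log2 units. Of those 646 pairs, 1 (0.155%) had r at or below -0.8 in replicate 2. With replicate 2 choosing, it was again the 1 pair of 1563, while in replicate 1 the limit was met by 2 of the 1563 (0.128%). Both replicates entered the line means that chose the pair, so these values describe it in each replicate and are no independent support. The replicates also hold the same lines.

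Between the plots of a line, no opposite movement of the partners was detectable. At Ta.14571.1.S1_at the log2 difference of replicate 2 minus replicate 1, which the rule did not use, was -0.47 for SB169, -0.21 for SB62, 0.39 for SB57, 1.53 for SB165, -0.21 for SB109, 0.22 for SB10, 0.08 for SB3 and -0.12 for SB69. At Ta.14571.2.A1_at it was 0.35, 0.83, 0.36, 0.55, -0.50, 0.46, 0.57 and 0.34 log2 units in the same order of lines. The first partner was higher in replicate 2 in 4 of 8 lines and the second in 7 of 8.

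These differences correlated at r = 0.243 (two-sided exact permutation p = 0.43, 0.453 adjusted over the 876 partner pairs; rho = 0.214, exact permutation p = 0.619, adjusted 0.643; n = 8 lines). Without SB165 and SB169, the lines farthest from the median of the first partner, r was 0.228. Over the 876 pairs the median r of such differences was 0.91, it was positive in 97.3%, and 81.3% were called at an adjusted p under 0.05, 711 of them positive and 1 negative. The pair was not among those called, and a p that misses the threshold does not show that its partners vary independently.

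The line pattern of Ta.14571.2.A1_at was shared by many wheat probe sets and that of Ta.14571.1.S1_at by few. Among 2962 wheat probe sets with a line range of at least 1, 464 others (15.7%) had r at or above 0.9 with Ta.14571.2.A1_at, and 5 (0.169%) with Ta.14571.1.S1_at. The first partner had r at or below -0.9 with 371 (12.5%), and the second with 11 (0.371%). These counts are not independent, since the partners themselves correlate at -0.979. All 3 of SB169, SB62 and SB57 lay below all other lines at 1114 of the 2962 probe sets and above them at 94.

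This division also lay along the main axis of variation of the arrays. The first principal component of the probe sets above the median level held 41.1% of the variance. Signed so that it rises with Ta.14571.2.A1_at, its line means ran from -39.9 to -25.1 in SB169, SB62 and SB57. In the other 5 lines they ran from -1.60 to 40.6. Of these, SB69 (-1.60), SB109 (4.73) and SB165 (13.8) lay well below SB3 (38.0) and SB10 (40.6), so the axis also divided the 5 lines. Over the 8 line means it correlated at 0.91 with Ta.14571.2.A1_at, -0.88 with Ta.14571.1.S1_at and 0.25 with Ta.14571.3.S1_x_at (descriptions, over values of the same arrays). The part of this axis in the pattern of the pair was not tested.

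The 2-level form of the pattern was less common. A gap over 60% of the range was found in 354 of the 2962 probe sets, which fell into 69 divisions of the lines. The division of SB169, SB62 and SB57 against the rest held 12 of them, and Ta.14571.1.S1_at was the 1 that was high in these 3 lines. Besides Ta.14571.2.A1_at, 10 were high in the other 5 lines, with ranges from 1.00 to 6.02 log2 units. All were picked by their line means, so no test is given for them. The widest was Ta.24110.1.A1_s_at, at 2.42 to 3.06 in SB169, SB62 and SB57 and 6.94 to 8.45 in the others. Next came Ta.2636.1.S1_x_at, at 2.22 to 2.84 and 6.81 to 8.18 (line means). None of the 12 was in the gene table, and those named here were singled out after their values were seen.

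The probe sets most like the members by correlation were likewise named after their values were seen. Ta.30640.1.S1_at (LOC100037541) was nearest to Ta.14571.1.S1_at, with r = 0.951 over the 8 lines and a line range of 1.17 log2 units. Ta.19469.1.A1_a_at was nearest to Ta.14571.2.A1_at, with r = 0.991 and a range of 3.61. Both were picked by their line means, so no test of them is given. Likeness over 8 lines in 2 clusters says little beyond a shared division.

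The nearest pair outside the limit on r was Ta.14543.1.S1_a_at and Ta.14543.2.A1_at, with r = -0.741 and ranges of 1.03 and 1.12. The first was highest in SB109 (9.16 ± 0.36) and lowest in SB69 (8.13 ± 0.06), and the second highest in SB57 (3.71 ± 0.17) and lowest in SB165 (2.59 ± 0.18) (SD, n = 2 each). Their extremes thus fell in different lines, and the F-test called the second (limma adjusted p = 0.000179) and not the first (limma adjusted p = 0.0895). The second was dim, with all arrays below 3.86, the log2 value at percentile 37.3 of all wheat values. This pair was picked by its line means, so nothing is read from the F-test. Inside the limit the pair of Ta.14571 had no neighbour.

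Just outside the limit on the range was Ta.1422.2.S1_at with Ta.1422.3.S1_a_at, at r = -0.831 and ranges of 2.37 and 0.89. Ta.1422.2.S1_at was high in SB165, SB169, SB10 and SB3, with line means from 4.88 to 5.32, and low in the other 4, from 2.96 to 3.29. Ta.1422.3.S1_a_at ran the other way, from 5.84 to 6.09 in the first 4 lines and from 6.20 to 6.73 in the rest. The line means did not overlap, but the arrays of Ta.1422.3.S1_a_at did: SB3 replicate 2, at 6.32, lay above both arrays of SB69 (6.22 and 6.17). At Ta.1422.3.S1_a_at the widest step between line means set SB109 and SB57 above the rest, at 26.1% of the range. The sum of the pair ranged over 0.50 log2 units. With smaller ranges of 0.5 to 1, 7 partner pairs of 6 clusters met the limit on r, from -0.885 in Ta.22966 to -0.813 in Ta.24806. No share of all partner pairs with such ranges is given, so this count is not set against the main rule.

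Cluster Ta.22966 gave 2 of these 7 pairs, and in both the clearest division of one partner was the reverse of the other's. Ta.22966.3.S1_at was low in SB109 (5.94 ± 0.33) and SB69 (6.06 ± 0.82), against line means from 8.14 to 8.51 in the other 6 lines (SD, n = 2). Ta.22966.2.S1_at was highest in the same lines, at 8.89 ± 0.03 in SB109 and 8.95 ± 0.05 in SB69, against 8.32 to 8.59 elsewhere (SD, n = 2). Its range of 0.63 kept the pair (r = -0.885, but rho = -0.238) out of the rule, and the sum ranged over 0.49 log2 units. Among the other 6 lines SB10 was highest at both probe sets (8.59 and 8.51), so the opposition was that of SB109 and SB69 to the rest. This cluster was singled out after its values were seen.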

How the data were processed

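Per the submitters' processing notes, GCOS and RMA made the values, with no version or order given. The authors deposited 1 normalized intensity per probe set and array for 61289 probe sets and 16 arrays. That they are linear was judged from their size, since RMA itself gives log2 values. The 174 control and reporter probe sets were left out. Values were set to at least 1 (0 values lay below) and log2 was taken without renormalizing. The members and the lists were chosen with earlier results of these data known.

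Lines were compared across all 61115 wheat probe sets with limma 3.58.1 in R 4.3.3 (1 mean per line, eBayes with an intensity trend, moderated F-test, Benjamini-Hochberg, threshold 0.05). Plot differences of partners were tested by exact permutation over the 8 lines. The rest was computed in Python 3.11.15 with scipy 1.17.1, numpy 2.4.6 and pandas 2.3.3. The fit and the pair rule were tested on simulated data. The naming rule took the first 8 pairs by smaller range (here 1 pair met the rule), the pairs with extreme sums and the pairs nearest the limits. Sequences of the probe sets were not used here. Replicates are separate field plots, and 2 arrays per line limit the precision.

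Alternatives were other limits on r and range, rank correlation, a floor of 16, quantile normalization, median centring, a filter on dim probe sets, removal of 3 identifier suffixes, no trend, array weights, the replicate block, each replicate number alone, and each array left out.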

Additional observations from a re-analysis of the deposited data

How the results depend on the processing

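The pair of Ta.14571 was chosen again, alone, with r at or below -0.9, ranges of at least 2, a floor of 16, quantile normalization, median centring, the filter on dim probe sets, without _x_at, _s_at and _a_at, without replicate 1 or replicate 2, and in each of the 16 fits without 1 array (1 to 1 pair). It was among 2 pairs with r at or below -0.7, among 8 with ranges of at least 0.5, and among 2 with TaAffx identifiers, an alternative chosen after seeing the data. For the 8 pairs no share of all partner pairs with such ranges is given. With Spearman's rho at or below -0.8 there were 0 pairs, so no sum could be given. The median range of the summed signal was 0.42 over the 8 pairs with ranges of at least 0.5, against 1.17, and over single arrays left out it ran from 1.06 (without SB69 replicate 1) to 1.43 (without SB165 replicate 2). In replicate 1 alone (without replicate 2) it was 1.63, and in replicate 2 alone 1.06. The F-test called both members in all 21 other fits and at a threshold of 0.01, with limma adjusted p-values up to 6.64e-05 and 0.00024. With the replicate block it also called 2 (limma adjusted p = 7.76e-06 and 1.66e-06). Since the rule asked for separated line means, nothing is read from these calls of the members. The block called 2924 wheat probe sets, against 2441. Whether the replicate numbers pair the arrays is not settled: plot differences correlated over 0.1 in 14 of 28 pairs of lines (-0.295 to 0.536, median 0.108). Without detection calls, signal over background limits how the dim levels are read.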

Other observations

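Among the probe sets with TaAffx identifiers, which the rule left out, 40 partner pairs had both line ranges at least 1, and 1 had r at or below -0.8 (r = -0.892). In that pair, TaAffx.129051.1.S1_at and TaAffx.129051.3.S1_s_at, single arrays and not lines stood apart. TaAffx.129051.1.S1_at was at 10.60 in SB169 replicate 1 and 13.18 in replicate 2, and at 13.35 and 11.28 in SB69. TaAffx.129051.3.S1_s_at was at 9.42 and 7.42 in SB169 and at 6.79 and 8.96 in SB69. The replicates of these lines thus lay on different levels, in opposite directions at the 2 probe sets, and neither probe set was called among the lines (limma adjusted p = 0.742 and 0.865). The pair was looked at after the data were seen, and the cause of its pattern was not tested.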
